A study of Arabidopsis thaliana with 12 samples.

Results

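The NAC transcription factors are one of the large families of plant regulators, and 10 of the 800 rows of the deposited gene table of gold-treated Arabidopsis roots belong to them. They were found as the rows whose description holds NAC as a word or whose symbol starts with NAC or ANAC. To these, 36 of the 4977 rows of the deposited exon table were joined by transcript cluster, the array's unit for a gene. Each row of the exon table stands for a probe selection region or junction of the array. Such a row is called an exon here, though it need not be a whole exon. Seedlings of Arabidopsis thaliana Col-0 were grown hydroponically in MS medium until 12 days old. Their roots were then exposed for 12 h to gold at 10 ppm and pH 4.2, without nutrient medium. Control roots were kept in distilled water of the same pH. The labels write the gold compound as HAuClO4 and the paper as HAuCl4. Each group had 3 biological replicates, every replicate a pool of many seedlings, and the 6 AraGene-1_0-st arrays were deposited as 12 samples because each was summarized once by gene and once by exon.

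NAC proteins share an N-terminal DNA-binding domain, named after the petunia gene NAM and the Arabidopsis genes ATAF and CUC, and carry a variable C-terminal region that activates or represses transcription. Family members are known for roles in organ boundaries, secondary wall formation, senescence and the response to drought, salt and abscisic acid (ABA). In roots they also act in root cap and lateral root development.

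The tables hold one log2 signal per group, the authors' bi-weight average over the arrays of that group. Single arrays were not analysed here. No spread between replicates can therefore be given, no difference was tested, and all differences are gold minus control of these averages. Per the methods, features were kept at a change of more than 2-fold and a p-value under 0.05. The paper counts fewer genes and fewer exons under these criteria than there are deposited rows, for a reason not known here. The deposited rows are therefore not the same set as the paper's, and all shares below are of the deposited rows. The smallest difference in either table is 1.0 on the log2 scale, which is 2-fold, and the p-value criterion was not checked here. A NAC gene without a row may have changed less or may have been left out by the p-value. In whole roots, fewer cells of a type and less RNA per cell cannot be told apart. Probe signals of different genes are not on one scale, so levels were compared within a gene only. A log2 signal below 6 is called low here, a chosen limit, since the background of the arrays was not analysed. Related NAC genes can be alike in sequence, and whether a probe of one also picks up another was not tested.

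Of 11 root markers that were looked up, 5 have a gene or exon row, all lower in gold-treated roots. Over all protein-coding genes 9.71% have such a row, and 34.6% of gene rows and 45.4% of exon rows are lower. The markers were chosen with earlier results of these data known, so their share and direction are no independent evidence. The 5 lower markers are genes of root hairs and of the epidermis. LRX1 had a log2 signal of 8.89 in gold-treated roots, against 9.9 in control roots, and WER had 7.18 in gold-treated roots, against 8.23 in control roots. EXP7, EXP18 and COBL9 have a single exon row each, with differences of -1.01, -1.25 and -1.48. Of 5 green tissue markers, only LHCB2.1 has a row, a single exon with a low signal of 3.88 in gold-treated roots and 2.88 in control roots. The other root markers, SHR, SCR, CASP1, GL2, RHD6 and NRT2.1, have no row. The 5 lower genes therefore do not describe root hair or epidermal genes as a whole. Only changed features are listed, so markers without a row cannot be checked, and the markers are no check of the tissue's identity. The part of the root hair genes in the NAC differences was not tested.

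Of the 10 NAC genes 9 were higher in gold-treated roots and 1, NAC094, was lower. The higher share of 90% stands beside 65.4% of all 800 rows of the gene table, and the lower one beside 34.6%. Of these 800 rows 171 name no gene locus, and the shares without them were not computed. The 9 higher genes had differences of 1.14 to 2.32 on the log2 scale, with a median of 1.58, and the median of all 523 higher rows was 1.39. A change of 3-fold or more was seen in 4 of the 10 genes, a share of 40%, beside 28.8% of all rows.

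**Figure D1:**
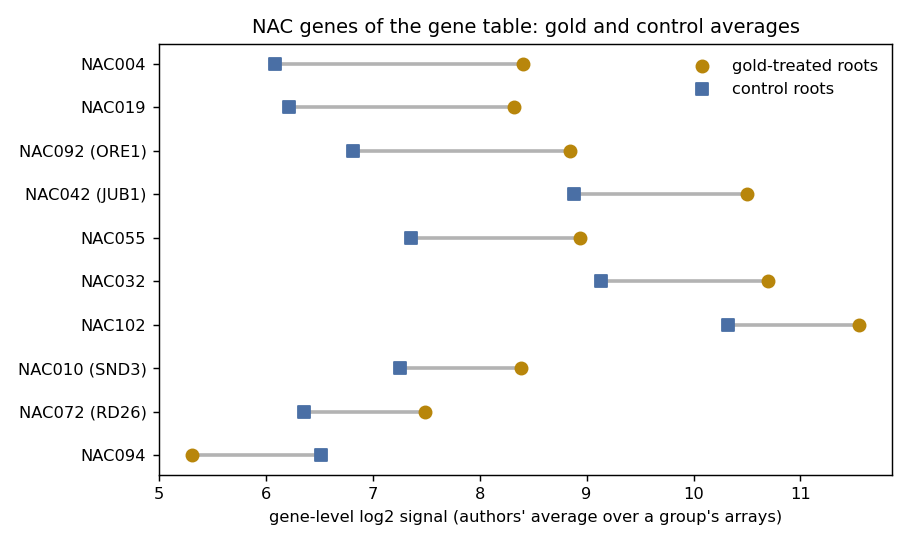
Gene-level log2 signal (x axis, the authors' average over the arrays of a group) of the 10 NAC genes in gold-treated roots (circles) and control roots (squares), ordered by their difference. The gold value lies to the right of the control value in 9 genes and to the left in NAC094, and the longest gap, in NAC004, is 2.32.

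The largest difference among the 10 NAC genes with a gene row belonged to NAC004 (AT1G02230, chromosome 1), a member whose function is little described. Its log2 signal was 8.4 in gold-treated roots, against 6.08 in control roots, which is 4.99-fold higher. By the size of the difference it was 47th of the 523 rows that were higher in gold. All 5 of its exon rows were higher as well, by 2.32 to 2.85. The exon with the smallest difference had 9.77 in gold-treated roots, against 7.45 in control roots. The exon with the largest difference, 8.26 in gold-treated roots against 5.41 in control roots, was 7.21-fold higher. The other 3 exons differed by 2.36, 2.62 and 2.77. The gene-level value of NAC004 equals its lowest exon difference, so each listed exon changed as much as the whole gene or more.

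A group of 3 close relatives, NAC019, NAC055 and NAC072, is known from drought, salt, ABA and jasmonate responses, and its proteins bind the promoter of ERD1, a protease subunit gene induced by dehydration. All 3 were higher in gold-treated roots, but by different amounts. NAC019 (AT1G52890, chromosome 1) had a log2 signal of 8.32 in gold-treated roots and 6.21 in control roots, a difference of 2.11 or 4.32-fold. NAC055 (AT3G15500, chromosome 3, listed under the symbol NAC3) had 8.94 in gold-treated roots and 7.36 in control roots, or 2.99-fold. NAC072 (AT4G27410, chromosome 4), better known as RD26, had 7.49 in gold-treated roots and 6.35 in control roots, or 2.2-fold. Whether the 3 differences differ from each other could not be tested without values of single arrays.

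The exon rows gave the same direction in all 3 genes. The 4 exon rows of NAC019 were higher by 1.82 to 2.35, those of NAC055, also 4, by 1.28 to 1.94, and the 2 exon rows of RD26 by 1.01 and 1.3. The ranges of NAC019 and NAC055 overlap. In NAC019 the exon with the largest difference had 9.2 in gold-treated roots against 6.85 in control roots, and the one with the smallest had 11.43 in gold-treated roots against 9.61 in control roots. In NAC055 the largest difference was in an exon with 7.02 in gold-treated roots against 5.08 in control roots, and the smallest in one with 10.57 in gold-treated roots against 9.29 in control roots. The exons of RD26 had 8.72 and 8.47 in gold-treated roots, against 7.42 and 7.46 in control roots.

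NAC092 (AT5G39610, chromosome 5), listed as NAC6 and known as ORE1, promotes leaf senescence and cell death downstream of the ethylene signalling protein EIN2. Its log2 signal was 8.84 in gold-treated roots, against 6.81 in control roots. This is a difference of 2.03, or 4.08-fold, the third largest among the 10 NAC genes with a gene row. Its 4 exon rows were all higher, by 1.65 to 2.32. The exon with the largest difference had 7.29 in gold-treated roots, against 4.97 in control roots, and the exon with the smallest had 8.5 in gold-treated roots, against 6.85 in control roots. NAC059 (AT3G29035), or ORS1, a related senescence regulator that the array also lists as NAC3, has no gene row. Its single exon row was at 6.38 in gold-treated roots, against 4.55 in control roots, which is 3.56-fold higher.

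NAC042 (AT2G43000, chromosome 2), or JUB1, is induced by hydrogen peroxide, delays senescence, activates DREB2A and represses the gibberellin gene GA3OX1. It had a log2 signal of 10.5 in gold-treated roots and 8.88 in control roots, a difference of 1.62 or 3.07-fold. Of its 4 exon rows 3 lay close together, at 1.61, 1.61 and 1.71. The fourth had 7.13 in gold-treated roots against 6.04 in control roots and differed by 1.09.

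NAC032 (AT1G77450, chromosome 1) and NAC102 (AT5G63790, chromosome 5) belong to the stress-responsive ATAF group, and NAC102 is known to help seeds germinate under low oxygen. NAC032 had a log2 signal of 10.7 in gold-treated roots and 9.13 in control roots, or 2.97-fold. Its 4 exon rows, at 1.49 to 1.62, had the narrowest range of listed exons among the 10 NAC genes with a gene row, 0.13. NAC102 had 11.55 in gold-treated roots and 10.32 in control roots, or 2.35-fold. Its 3 exon rows had 10.38, 12.39 and 10.96 in gold-treated roots, against 9.08, 11.32 and 9.71 in control roots, which are differences of 1.3, 1.07 and 1.25. ATAF2 (AT5G08790), of the same group, has no gene row. One exon listed for it was at 9.69 in gold-treated roots against 8.36 in control roots, but that feature names 2 loci, ATAF2 and its neighbour AT5G08780, so the signal cannot be given to ATAF2 alone.

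NAC010 (AT1G28470, chromosome 1), or SND3, takes part in the transcriptional network of secondary wall thickening. It had 8.39 in gold-treated roots and 7.25 in control roots, a difference of 1.14. With that of RD26, this is the smallest among the 10 NAC genes with a gene row. Its 4 exon rows were higher by 1.14 to 1.6. The exon with the largest difference was at 8.41 in gold-treated roots against 6.81 in control roots.

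NAC094 (AT5G39820, chromosome 5) was the only member of the gene table lower in gold-treated roots. Its log2 signal was 5.31 in gold-treated roots, against 6.51 in control roots, 2.3-fold lower, and it was 158th by size of the 277 lower rows. One of its 2 exon rows was at 4.63 in gold-treated roots against 5.84 in control roots, a difference of -1.21. The other was at 4.69 in gold-treated roots against 6.54 in control roots, a difference of -1.85. The gene and both exons had a low signal in gold-treated roots, and the first exon was low in control roots as well.

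**Figure D2:**
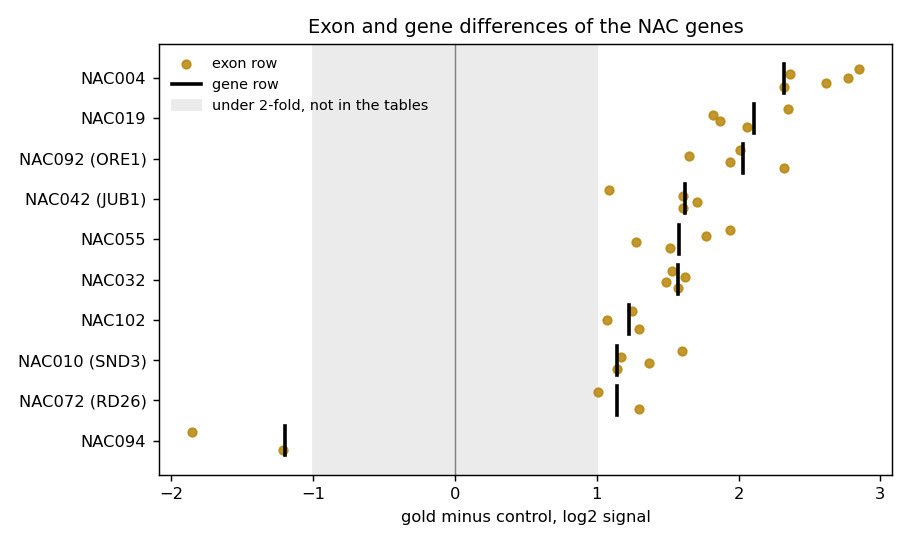
Gold minus control difference in log2 signal (x axis) of each exon row (points) and of the gene row (black line) for the 10 NAC genes; the grey band marks changes under 2-fold, which the tables do not list. All 36 exon points lie on the side of their gene, 34 higher and 2 lower, and the points of NAC032 span 0.13 while those of NAC092 span 0.67.

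All 36 exon rows moved in the direction of their gene, 34 higher and 2 lower. The share of higher exons, 94.4%, stands beside 54.6% of all exon rows, and the 2 lower ones beside 45.4%. Exons of one gene share their transcript and are not replicates of each other. Per the methods, only exons past 2-fold were listed, and their genes had passed the same limit. An opposite exon would have needed a 2-fold change the other way, so the shared direction was largely set by this selection. All exon rows are no like baseline, since 71.6% of the genes with exon rows have no gene row. The median exon difference was 1.61, beside 1.06 over all exon rows, a median that mixes both directions. A NAC gene had a median of 4 exon rows, against 2 for all genes with both a gene and an exon row. How many exons the array measures per gene was not analysed here, so these counts are not read as a trait of the NAC genes. Within a gene the listed exon differences spanned a median of 0.53, from 0.13 in NAC032 to 0.67 in NAC092. Exons under 2-fold are not listed, so the full spread within a gene may be wider. RD26 and NAC094 have only 2 exon rows each. The gene-level difference lay within the range of the exons in 9 genes. The exception was NAC094, whose gene-level value of -1.2 lies just beside its exon of -1.21. In 7 of the 36 exons the control signal was below 6. In 2 exons, of NAC019 and NAC094, the signal was below 6 in both groups.

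**Figure D3:**
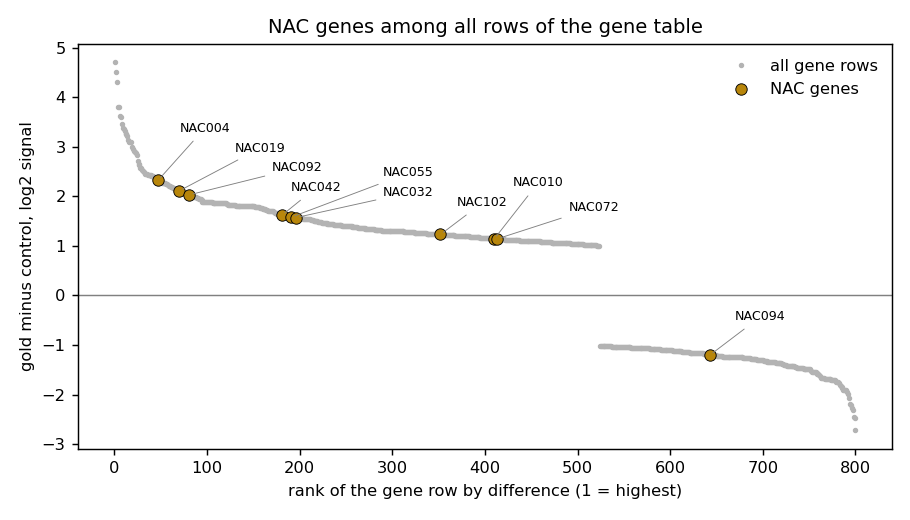
All 800 rows of the gene table ordered by gold minus control difference in log2 signal (y axis; x axis, rank), with the 10 NAC genes as large points. The NAC genes run from rank 47 of the higher rows (NAC004) to the shallow part of the curve (NAC010 and NAC072 at 1.14), and 1 lies among the lower rows.

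The NAC genes did not hold the largest changes of the table. NAC019 and NAC092 were 70th and 80th of the 523 higher rows by size, NAC042, NAC055 and NAC032 lay at 180, 191 and 195, NAC102 at 343, and NAC010 and RD26 shared rank 405. Beside other transcription factor families in the same table, the median size of the difference was 1.58 for the 10 NAC genes, 1.27 for 10 AP2/ERF genes, 1.15 for 5 WRKY genes and 1.09 for 8 MYB genes. Of the AP2/ERF genes 9 were higher and 1 lower, the same split as among the 10 NAC genes. All 5 WRKY genes were higher, and the MYB genes were split into 4 higher and 4 lower. The other families were found by words in symbols and descriptions, so their counts, splits and medians depend on those words. The paper's own lists of AP2-EREBP and MYB genes differ in part from these sets. These values are descriptions of small groups, and no difference between families was tested.

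RefSeq names 101 NAC genes in Arabidopsis. All 10 members are among them, so 9.9% of the family has a gene row, beside 2.3% of the 27562 protein-coding genes of RefSeq. With exon rows counted as well, 22 NAC genes, or 21.8%, have a row, beside 9.71% of protein-coding genes, and 79 have none. These 22 include ATAF2, whose only row names 2 loci. Counting only features that name 1 locus leaves 21 NAC genes, or 20.8%, beside 8.84% of protein-coding genes. How many of these genes the array measures was not analysed here. AT3G12910 lies outside the word rule and is not named as a NAC gene in RefSeq, but the array describes it by its no apical meristem domain, another name of the NAC domain. It had a log2 signal of 8.88 in gold-treated roots and 7.13 in control roots, or 3.36-fold, and its 3 exon rows were higher by 1.51 to 1.84.

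A further 12 NAC genes have exon rows but no gene row, 8 of them higher in gold-treated roots and 4 lower, and 11 of the 12 have a single exon row. Over all exon rows 54.6% are higher and 45.4% lower. Without ATAF2 there are 11 such genes, 7 of them higher. They are 54.5% of the NAC genes with a row, and over all 2740 genes with exon rows 71.6% have no gene row. A single exon past the criteria says little about its gene. The higher ones include NAC003 (AT1G02220), next to NAC004 on chromosome 1, with 2 exon rows at 1.02 and 1.07. In NAC003 one exon had 10.29 in gold-treated roots against 9.22 in control roots, and the other 8.83 in gold-treated roots against 7.81 in control roots. NAC096, which acts in dehydration responses, was at 1.25, NAC080 at 1.22, and XND1 (NAC104), which restrains xylem wall formation, at 1.11. VNI2 (NAC083), a repressor of vessel formation, was at 1.02, and NTL9, a membrane-tethered member, at 1.18 with a low signal of 3.76 in gold-treated roots and 2.58 in control roots.

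The lower ones include 2 regulators of secondary wall thickening, NST1 (NAC043, AT2G46770) and NST2 (NAC066, AT3G61910). The NST1 exon had 3.42 in gold-treated roots and 4.88 in control roots, and the NST2 exon 2.8 in gold-treated roots and 3.9 in control roots, so both signals were low. FEZ (NAC009), which orients divisions of root cap stem cells, had 1 exon at 7.14 in gold-treated roots and 8.17 in control roots. NAC011 had 1 exon at 5.54 in gold-treated roots and 6.57 in control roots, and both differ by -1.03.

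**Figure D4:**
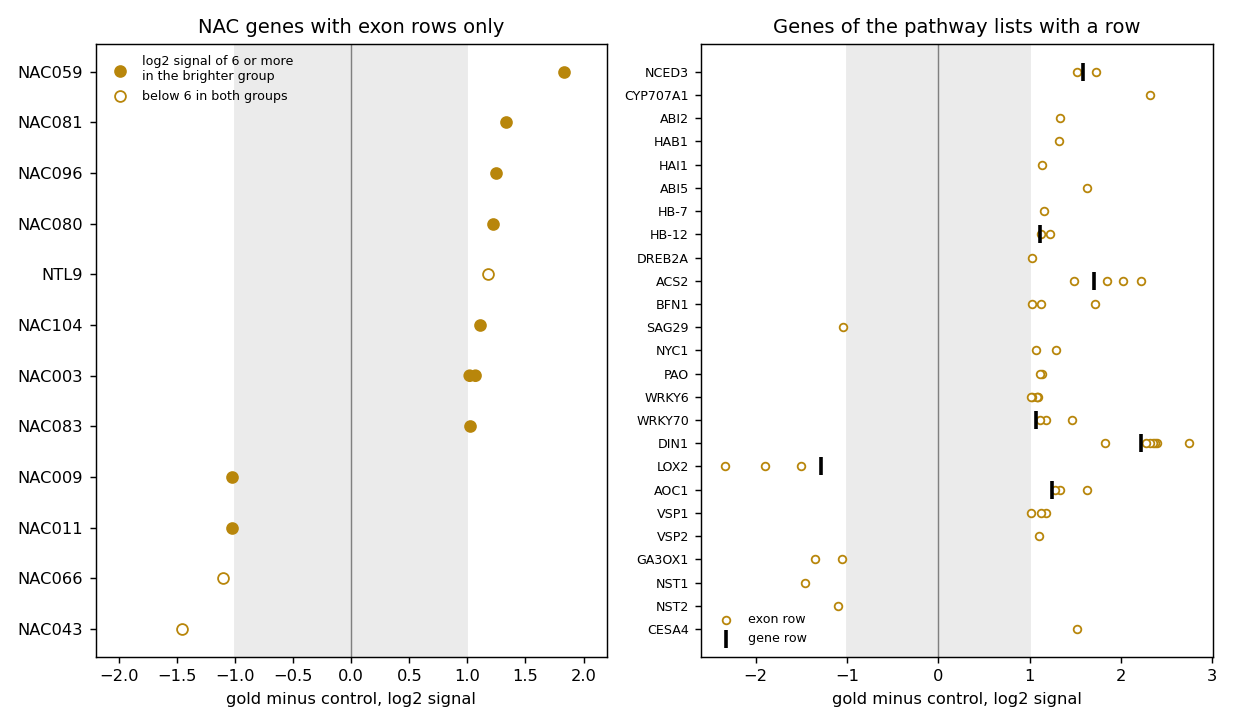
Left, gold minus control difference in log2 signal of the exon rows of the 12 NAC genes without a gene row (open points, signal below 6 in both groups); right, exon rows (open points) and gene rows (black lines) of the 25 genes of the pathway lists that have any row. On the left 8 genes lie above 0 and 4 below; on the right LOX2, SAG29, GA3OX1, NST1 and NST2 lie below 0 and the other genes above.

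The genes around these factors were taken from 7 lists of ABA, senescence, jasmonate, gibberellin and secondary wall genes. Of their 81 genes, 7, or 8.64%, have a gene row, 6 higher and 1 lower, beside 2.3% of all protein-coding genes, and 25, or 30.9%, have a gene or an exon row, beside 9.71%. The lists were drawn up with the study's results known. They are no independent evidence of a direction or of a share above that of all genes. The 18 of these genes with exon rows only were added to the named genes after their values were seen, and all 18 are given.

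In the ABA lists, NCED3, the rate-limiting enzyme of ABA synthesis, had a log2 signal of 9.78 in gold-treated roots and 8.2 in control roots, or 2.99-fold. CYP707A1, which breaks ABA down, had a single exon row, at a low signal of 5.18 in gold-treated roots and 2.86 in control roots. Among 15 signalling genes none has a gene row, and 4 have 1 exon row each, all higher. These are the protein phosphatase 2C genes ABI2, HAB1 and HAI1 at 1.33, 1.32 and 1.14 and the transcription factor ABI5 at 1.63. The ABA receptors, the SnRK2 kinases and the ABF factors of the lists have no row. The other phosphatase genes ABI1, PP2CA, HAI2 and HAI3 and the metabolic genes AAO3, ABA3 and CYP707A3 have none either. Of 7 genes of the ABA and drought response, 4 have no row, namely RD29A, RD29B, RAB18 and ERD1, and the other 3 were higher. The drought-responsive homeobox gene HB-12 had 6.92 in gold-treated roots and 5.81 in control roots. Its relative HB-7 had an exon row at 1.16, and DREB2A, a drought-responsive factor, 1 exon row at 1.03. In control roots the signals of HB-12 and of the exons of HAB1, HAI1, ABI5 and DREB2A were low.

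Among 16 genes of ethylene and senescence, 3 have a gene row and all were higher. DIN1 (SEN1), a dark- and senescence-induced gene, had a log2 signal of 9.96 in gold-treated roots and 7.74 in control roots, or 4.66-fold. ACS2, an enzyme of ethylene synthesis, had 8.39 in gold-treated roots and 6.69 in control roots. WRKY70, which the paper cites as a negative factor in leaf senescence, had 10.56 in gold-treated roots and 9.49 in control roots. BFN1, a nuclease gene that ORE1 activates, has 3 exon rows at 1.03 to 1.72, and the chlorophyll breakdown genes NYC1 and PAO have 2 each, at 1.07 to 1.29 and 1.11 to 1.14. The 5 exon rows of WRKY6, a senescence-related factor, were higher by 1.01 to 1.09. SAG29, a sugar carrier gene, was lower, at -1.04 in 1 exon. EIN2, EIN3, EIL1, SAG12, SAG13, NYE1, RNS3 and WRKY53 have no row.

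Of 13 genes of the jasmonate and salicylate list, 9 have no row, namely MYC2, LOX3, AOS, OPR3, BSMT1, SAGT1, ICS1, JAZ1 and JAZ10. The 2 genes with a gene row went opposite ways. AOC1, an allene oxide cyclase, had 6.88 in gold-treated roots and 5.63 in control roots. LOX2, a lipoxygenase of jasmonate synthesis, had 4.74 in gold-treated roots and 6.03 in control roots. In each of these genes the lower of the 2 signals was low. The storage protein genes VSP1 and VSP2 have exon rows at 1.02 to 1.18 and 1.1, the one of VSP2 with a low signal of 4.39 in gold-treated roots and 3.29 in control roots. Around JUB1, the exon rows of GA3OX1 were lower, at -1.35 and -1.06. DWF4, GAI and RGL1 have no row. Of 17 secondary wall genes none has a gene row and 14 have no row, among them the NAC genes SND1, SND2, VND6 and VND7. CESA4, a cellulose synthase, has 1 exon row at 1.52, and NST1 and NST2 are the lower ones given above.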

How the data were processed

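Roots of gold-treated and control seedlings were hybridized to AraGene-1_0-st arrays, 3 per group. Per the labels and the methods, the authors summarized the probes with RMA in Affymetrix Expression Console, which normalizes the arrays to one distribution, and used the Transcriptome Analysis Console for an unpaired comparison. The deposited gene and exon tables hold, for each group, a log2 signal that the authors averaged with bi-weights. The methods give a 2-fold change and a p-value under 0.05 as criteria, and the paper counts fewer features under them than are deposited. The 3 further columns of the tables, a signed fold change, a p-value and an FDR, are the authors' own comparison and were not used. The annotation is that of tair10.

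Here the gold minus control difference of the log2 averages was taken per gene and exon, and a fold is 2 to the power of that difference. Signals are given to 2 decimals. No model could be fitted to averages, and the number of arrays limits the precision. Depth is not a property of arrays. Names, family members and neighbours came from RefSeq on TAIR10.1, in which 634 of the 636 loci of the gene table and all 97 list genes were found, and none of its coordinates is reported. The genes named are all those the word rule finds, the other NAC genes with a row and the genes of 9 lists that have a gene row. List genes with exon rows only, list genes with no row and neighbours of the NAC genes were added after the values were seen. The members and lists were chosen with earlier results of these data known. The word rule and the counts were tested on simulated data. Protein and promoter comparisons were planned, but sequences were not used here. The alternatives were other word rules, a threshold of 3-fold, a log2 signal of at least 6, joining exons by locus and gene values built from exons. Python 3.11.15, numpy 2.4.6, pandas 2.3.3 and matplotlib 3.10.9 were used.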

Additional observations from a re-analysis of the deposited data

How the results depend on the processing

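No result changed direction under the alternatives tried. A threshold of 3-fold left 4 higher and 0 lower NAC genes, and 20 higher and 1 lower exon rows. A log2 signal of at least 6 in the brighter group left 33 higher exon rows and 1 lower one, moved the median size over all gene rows to 1.33 and, chosen after seeing the data, the median exon range to 0.495. Building the gene values from mean exon signals gave a median difference of 1.529 over the NAC genes. Counting exon rows as well moved the share of RefSeq NAC genes with a row to 21.8%, and to 20.8% with features that name 1 locus, a count added after seeing the data. Single gene values built from exons differed from the gene-level ones by -0.33, in NAC094, to 0.3, in NAC004, with no change of sign. Other word rules gave 8 to 10 higher genes and 1 lower gene. These changes follow from the construction of each alternative. No paired analysis was possible because the tables used here hold one average per group, and for the same reason no replicate was left out. Single arrays were not analysed here. Differences carry a rounding error of 0.01.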

Other observations

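The protein-coding neighbours of the 10 NAC genes on both sides, 20 loci in the order of the RefSeq annotation, have no gene row, beside 2.3% of protein-coding genes with one, and 4 of them have exon rows, beside 9.71% with a gene or exon row. These are NAC003 beside NAC004 with 2 exons higher by 1.02 and 1.07, PIF4, a light-signalling factor, beside JUB1 with 1 exon higher by 1.24, AT4G27415 beside RD26 with 1 exon higher by 1.02, and MUM2, a cell wall galactosidase, beside NAC102 with 2 exons at -1.18 and -1.07. Of the neighbours 4 are NAC genes themselves, and NAC005 beside NAC004, NAM beside NAC019 and NAC2 beside NAC055 have no row. AT2G42990 overlaps JUB1 and SHA1 overlaps NAC102 in the annotation, and neither has a row. Whether probes at these overlaps carry signal of both genes was not tested. The neighbours were examined after the values of the NAC genes were seen.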
